A study of Mus musculus with 64 samples.

Results

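The genes described here are 33 mouse genes of glycolysis and of the cellular response to low oxygen chosen by name, each matched to its symbol in the expression files. All 33 were found among 23997 symbols in the files of a time course and 23995 in those of a second cohort. The study took pinch biopsies of the colon of C57BL/6 mice, an inbred strain, and sequenced poly(A)-selected RNA from the wound bed or from colon after a sham procedure. In the time course, wound beds and shams were collected after 1 h (6 wound beds and 4 shams), after 6 h (5 of each), after 3 d (6 wound beds and 5 shams) and after 6 d (5 of each). The second cohort, collected after 6 h, had an arm titled abx (5 biopsies, 6 shams) and an arm titled veh (6 and 6). The titles and the condition field contradict each other on which of these arms received broad-spectrum antibiotics in the drinking water, so the arms are named by title and no direction is stated for antibiotics. No other treatment or allele is labelled, and whether each library is from an animal of its own is not labelled, so p-values measure the spread between these libraries.

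Glycolysis converts glucose to pyruvate, which is reduced to lactate when oxidation in mitochondria is limited. The transcription factor HIF-1 joins the oxygen-labile subunit encoded by Hif1a to a stable partner. With oxygen, prolyl hydroxylases (the EGLN proteins) mark the labile subunit for destruction, and without it HIF-1 raises transcription of glucose transporters, most glycolytic enzymes, Pdk1 and genes such as Car9 and Bnip3. The surface of the colon faces a nearly oxygen-free lumen, and its epithelium is known to sit at low oxygen in health. Hif1a itself is regulated largely through protein stability, so a change in its RNA is a different quantity from HIF activity, which was not measured.

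Gene coordinates are on GRCm38 (mm10), from the GENCODE annotation, matched by symbol. Levels are FPKM, read fragments normalised to transcript length and to the mapped total. Changes are differences of mean log2(FPKM + 1) between biopsies and shams, on which a change of 1 is a doubling for well expressed genes and understates the fold of low ones. A gene is called at an adjusted p under 0.05 over all genes tested, of which there were 13285 for the time course and 11849 for the second cohort. The time course libraries summed to between 414318 and 522098 FPKM and those of the second cohort to between 229752 and 266646, so levels are not compared between the cohorts. The files hold no read counts, so depth is unknown. Relative depth could only be estimated from the FPKM values, and spanned 1.0 to 1.52 and 1.0 to 1.6 times the shallowest library. Among the libraries, 4 stood apart with over 50 FPKM of summed B cell genes (1 h sham replicate 1, 6 d biopsy replicate 3, 6 d sham replicate 2 and abx-titled sham replicate 3), and without them the genes called lower at 6 d numbered 7 in place of 12. Biopsy replicate 6 at 6 h lay nearest the shams for several genes, and its values are given with the results at 6 h. In the time course, 3 d sham replicate 1 had the fewest genes at 1 FPKM or more (11351). Without it, 3366 of all genes were called higher at 3 d in place of 4269. The median change of all genes was -0.18 at 1 h, -0.12 at 6 h, 0.09 at 3 d, 0.11 at 6 d, -0.12 in the abx-titled arm and -0.17 in the veh-titled arm, so small changes near these medians depend on the scaling.

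The 33 genes did not move as 1 group. At 1 h 7 were higher in the wound bed and 18 lower, that is 21.2% and 54.5% of the 33, against 9.38% and 45.0% of all genes tested. At 6 h 13 were higher and 5 lower (39.4% and 15.2%, against 24.3% and 43.2% of all genes). Slc2a3 is among the 7 and the 13, although it reached 1 FPKM in no sham and was tested only through its biopsies. At 3 d 6 were higher and 4 lower, where 32.1% and 10.5% of all genes were called. At 6 d 5 were higher and 12 lower, where 34.1% and 10.2% of all genes were called. Their median change was -0.23 at 1 h, 0.15 at 6 h, 0.04 at 3 d and -0.04 at 6 d.

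These splits moved with the scaling of the libraries. With a median of ratios scaling, all genes split into 2762 higher and 2749 lower at 1 h, in place of 1246 and 5973, and the 33 genes into 9 and 5. All 7 higher calls of the 33 at 1 h were kept, and of the 18 lower calls those of Pdk1, Egln1, Egln3, Kdm3a and Ankrd37. At 6 h all genes split into 4317 and 4228, in place of 3227 and 5734, and the 33 into 19 and 3, with all 13 higher calls kept. At 3 d all genes split into 2641 and 2550, in place of 4269 and 1397, and the 33 into 5 and 8, with Slc2a1 losing its call. At 6 d all genes split into 2407 and 2346, in place of 4524 and 1351, and the 33 into 4 and 15, with all 12 lower calls kept and Hk2 losing its call.

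**Figure D1:**
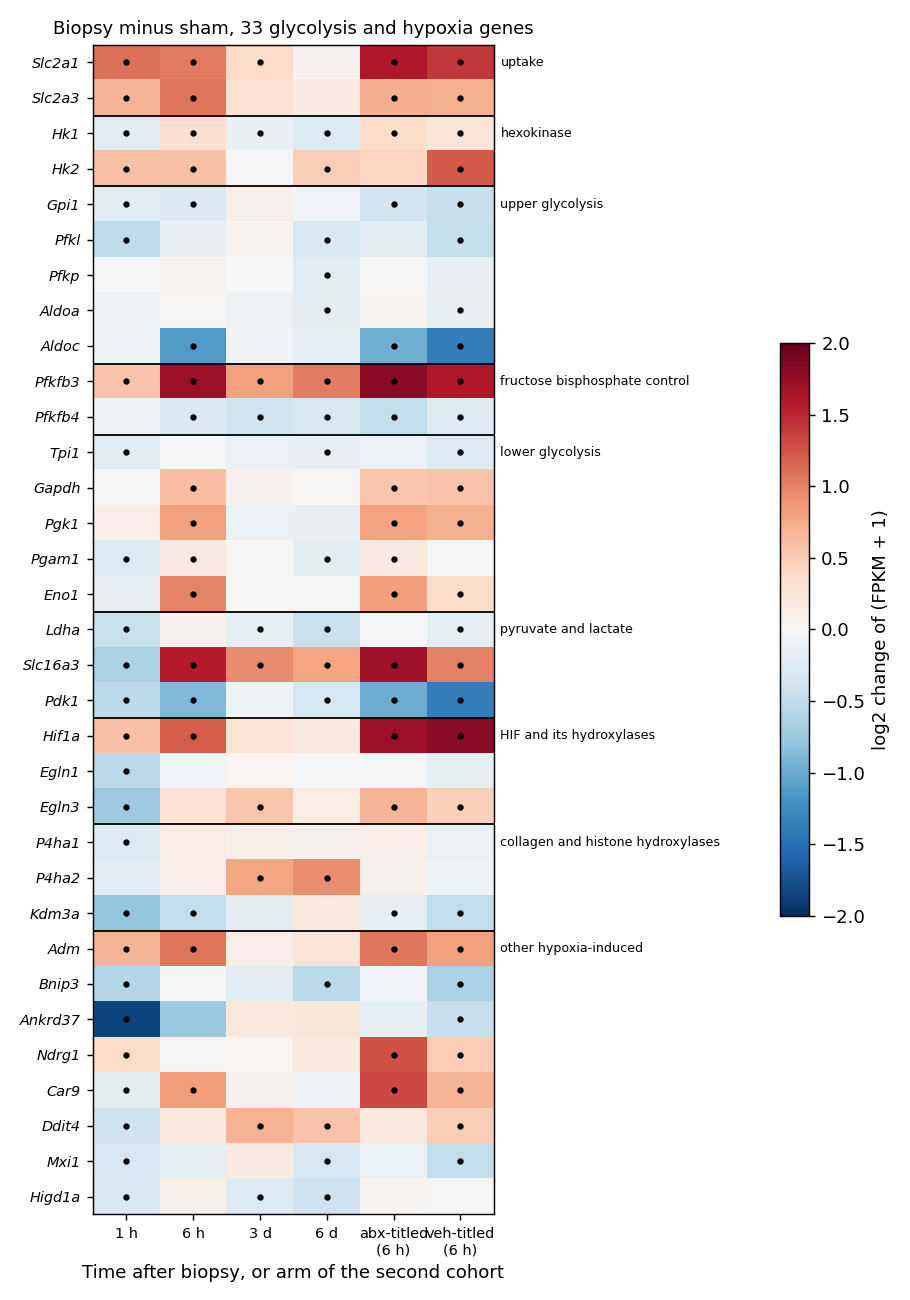
Change in each of the 33 genes (rows, grouped by role) at 4 times and in the 2 arms of the second cohort (columns); colour is the log2 change of (FPKM + 1), biopsy minus sham, and a dot marks an adjusted p under 0.05. Pfkfb3 was called higher in all 6 columns, and Aldoc and Pdk1 were called lower in the 3 columns at 6 h.

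RNA of the glucose transporter Slc2a1 was higher from the first hour. Slc2a1 (ENSMUSG00000028645.11, chr4:119108711-119137983, plus strand) encodes GLUT1, a glucose transporter present in most cells. At 1 h its level was 182 to 241 (median 199.8) FPKM in the 6 biopsies and 84.3, 90.1, 95.5 and 108 FPKM in the 4 shams. At 6 h it was 120.3, 156, 165, 173 and 187 FPKM in biopsies and 70.2, 76.0, 77.3, 78.7 and 82.0 FPKM in shams. Every biopsy was above every sham at both times. The log2 change was 1.10 ± 0.11 (SE), adjusted p = 1.31e-10, at 1 h and 1.04 ± 0.11 (SE), adjusted p = 1.66e-10, at 6 h. It shrank to 0.38 ± 0.10 (SE), adjusted p = 0.00256, at 3 d, a significantly smaller change than at 6 h (adjusted p = 0.000379), and was 0.08 and not called at 6 d. Slc2a3 (ENSMUSG00000003153.10, chr6:122727809-122801640, minus strand) encodes GLUT3, a high-affinity transporter found in neurons and white blood cells, and was close to the detection floor. Its level was 0.726, 1.72, 2.32, 2.67 and 3.09 FPKM in the 6 h biopsies and 0.258, 0.340, 0.422, 0.519 and 0.616 FPKM in the shams, without overlap, a log2 difference of 1.06 ± 0.17 (SE), adjusted p = 1.98e-06. No sham of either cohort reached 1 FPKM (0 of 19 and 0 of 12), so Slc2a3 entered the test only through its biopsies. Its calls are included in the counts of genes but are not taken as support. Markers of neutrophils, which express GLUT3, summed to 397 to 978 FPKM in the 6 h biopsies and 1.40 to 6.76 FPKM in the shams, and their part in the change was not tested. In bulk tissue, fewer cells of a type and less RNA per cell cannot be told apart.

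The hexokinases among the 33, Hk1 and Hk2, trap glucose in the cell as its phosphate. Both were called higher at 6 h, and in opposite directions at 1 h and 6 d. Hk2 (ENSMUSG00000000628.10, chr6:82725025-82774454, minus strand) is the inducible form bound to mitochondria and Hk1 the constitutive one. Hk2 was 50.3 to 75.0 (median 61.6) FPKM in the 1 h biopsies and 37.9, 38.6, 43.1 and 43.6 FPKM in the shams, again without overlap. At 6 h it was 32.7, 40.5, 41.1, 50.3 and 54.9 FPKM in biopsies and 25.3, 27.5, 29.4, 30.1 and 30.3 FPKM in shams, and at 6 d 43.2, 49.5, 51.7, 74.8 and 76.8 FPKM and 26.7, 39.6, 44.5, 45.5 and 52.0 FPKM. The groups were apart at 6 h and overlapped at 6 d. Its log2 change was 0.59 ± 0.17 (SE), adjusted p = 0.00446, at 1 h, 0.59 ± 0.17 (SE), adjusted p = 0.00281, at 6 h and 0.49 ± 0.17 (SE), adjusted p = 0.0185, at 6 d, and -0.04 and not called at 3 d. With the replicate number as a block the 1 h call ended (adjusted p = 0.103). The 6 d call ended in 8 of 21 alternatives, among them those without biopsy replicate 2 or 3 or sham replicate 3. Hk1 changed by much less, by -0.23 at 1 h, 0.33 at 6 h, -0.16 at 3 d and -0.28 at 6 d, and each of these passed the test. The 3 d call ended in 12 of 22 alternatives, among them those without biopsy replicate 1, 3, 4 or 5 or sham replicate 1, 3 or 4. Under median of ratios scaling the 1 h change was -0.00097 and not called. The change in Hk1 differed between 1 h and 6 h (adjusted p = 8.88e-06).

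Of 5 genes of upper glycolysis, Aldoc and Gpi1 were lower at 6 h and none higher, a share lower near that of all genes (43.2%). Aldoc (ENSMUSG00000017390.15, chr11:78322968-78327781, plus strand) encodes aldolase C, an isoform best known from brain, and Aldoa the main isoform of most tissues. Aldoc was 6.05, 7.57, 8.07, 8.19 and 13.9 FPKM in the 6 h biopsies and 18.0, 18.5, 19.3, 19.3 and 23.9 FPKM in the shams. The groups did not overlap, although biopsy replicate 6, at 13.9 FPKM, stood above the other 4. On the log2 scale it changed by -1.13 ± 0.11 (SE), adjusted p = 8.02e-11. At 1 h, 3 d and 6 d it was -0.09, -0.07 and -0.18, none of them called. The change at 6 h was larger than at 1 h (adjusted p = 2.09e-06) and at 3 d (adjusted p = 9.7e-07). Aldoa, with means of 506 to 663 FPKM over the 8 groups, moved little, by 0.02 at 6 h, and was called only at 6 d (-0.22). Gpi1, the phosphoglucose isomerase, fell by 0.23 at 1 h and 0.28 at 6 h. With median of ratios scaling its change was 0.0016 at 1 h and -0.14 at 6 h, and neither was called. Pfkl and Pfkp encode liver-type and platelet-type phosphofructokinase, which commits sugar to glycolysis. Pfkl was lower at 1 h (-0.51) and 6 d (-0.30), and Pfkp at 6 d alone (-0.20). The 6 d call of Pfkl ended without biopsy replicate 2 or 3, and that of Pfkp without any 1 of biopsy replicates 3, 4 and 5 and sham replicates 3, 4 and 5.

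Pfkfb3 (ENSMUSG00000026773.19, chr2:11471433-11554077, minus strand) and Pfkfb4 encode kinases that make a fructose bisphosphate known as the strongest activator of phosphofructokinase, and they went opposite ways at 6 h, 3 d and 6 d. Pfkfb3 was the only member called higher at all 4 times. It was 7.54, 8.43, 10.6, 10.8 and 11.6 FPKM in the 6 h biopsies and 1.72, 1.74, 1.96, 2.12 and 4.36 FPKM in the shams, a log2 difference of 1.71 ± 0.21 (SE), adjusted p = 9.24e-09. At 6 d it was still 4.98, 5.03, 6.36, 9.20 and 12.3 FPKM in biopsies and 2.02, 2.49, 3.15, 3.28 and 4.38 FPKM in shams. The groups overlapped at 1 h but not at 6 h, 3 d or 6 d. The changes at 1 h, 3 d and 6 d were 0.57 (adjusted p = 0.0247), 0.82 (adjusted p = 0.00139) and 1.03 (adjusted p = 0.000177). The call at 1 h ended without biopsy replicate 2, 3 or 4 or without sham replicate 2 or 5, with adjusted p up to 0.0784. Pfkfb4 was -0.07 at 1 h and not called, and lower at 6 h (-0.29), 3 d (-0.40) and 6 d (-0.32), each time without overlap.

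Of 5 genes of lower glycolysis 4 were higher at 6 h, where 24.3% of all genes were, or 3 under quantile normalization, which ended the call of Pgam1. None was called higher at the other 3 times, except that Gapdh and Pgk1 (0.35) were called higher at 1 h with median of ratios scaling. Pgk1 (ENSMUSG00000062070.12, chrX:106187100-106203699, plus strand) encodes phosphoglycerate kinase, the first ATP-yielding step. It was 243, 247, 261, 265 and 285 FPKM in the 6 h biopsies and 125, 136, 150.4, 155 and 172 FPKM in the shams, groups that did not overlap. The difference on the log2 scale was 0.82 ± 0.08 (SE), adjusted p = 5.53e-11, at 6 h, against 0.13, -0.14 and -0.16 at 1 h, 3 d and 6 d, none of them called. Gapdh, the dehydrogenase of the preceding step and a common reference gene in expression assays, was 245 ± 6.03 FPKM in biopsies (SD, n = 5) and 160.2 ± 9.37 FPKM in shams (n = 5) at 6 h, a log2 difference of 0.61 ± 0.06 (SE), adjusted p = 1.33e-11. At 1 h the Gapdh change was -0.00136 and not called, and with median of ratios scaling that change was 0.23 and called (adjusted p = 0.0234). Pgam1, phosphoglycerate mutase, was lower at 1 h (-0.28), higher at 6 h (0.18) and lower again at 6 d (-0.22), and its 1 h call ended under median of ratios scaling. Tpi1, triose phosphate isomerase, was -0.02 and not called at 6 h.

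Eno1 (ENSMUSG00000063524.13, chr4:150236721-150248879, plus strand) encodes enolase 1, which acts after the mutase. It was 56.8, 71.5, 87.5, 88.4 and 90.7 FPKM in the 6 h biopsies and 34.1, 36.9, 37.7, 41.5 and 44.7 FPKM in the shams, a log2 difference of 0.99 ± 0.13 (SE), adjusted p = 1.81e-08. The files list a near-identical retrogene copy, Eno1b, at far higher values, 301 ± 11.6 FPKM in the 6 h biopsies (SD, n = 5) and 193 ± 20.0 FPKM in the shams (n = 5). Reads of such a pair can be assigned to either copy, so the level of each is uncertain. Eno1b was also higher at 6 h, by 0.65 (adjusted p = 2.24e-10), and the 2 symbols summed to 380.2 ± 14.4 and 232 ± 22.4 FPKM. Genes with many processed pseudogenes, among them Gapdh, Ldha, Pgk1, Tpi1 and Pgam1, carry the same uncertainty in level.

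**Figure D2:**
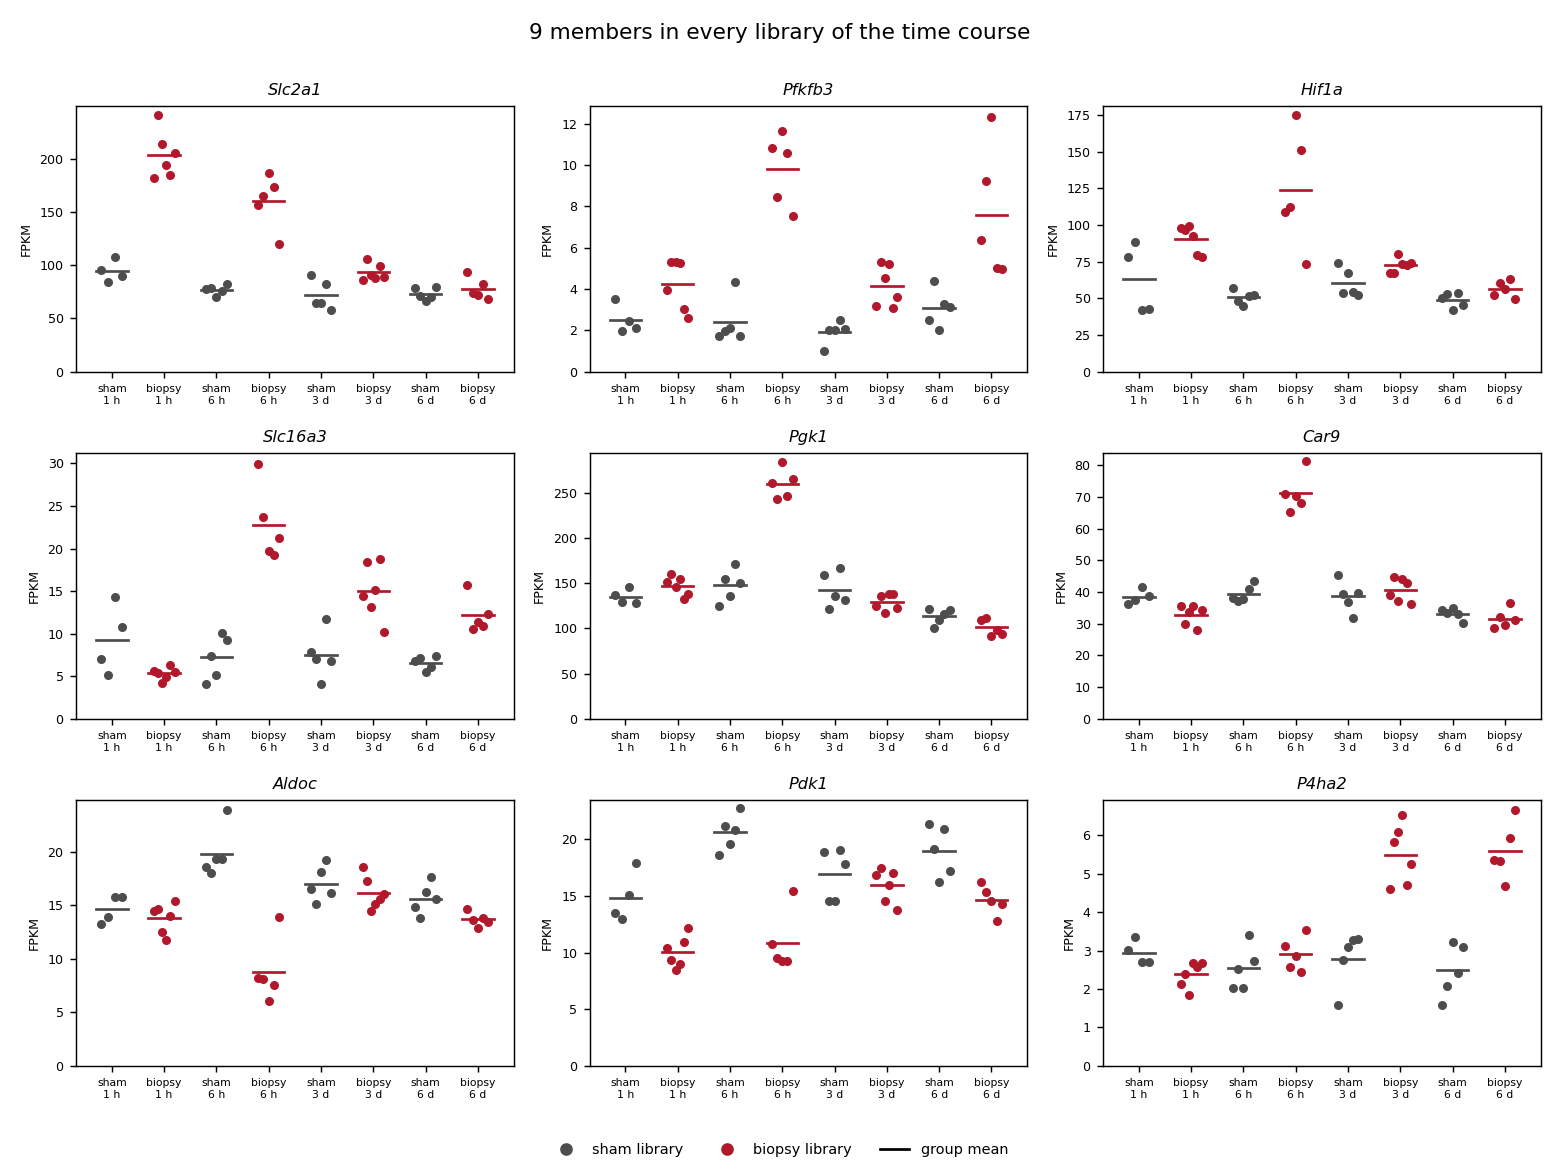
FPKM of 9 genes in each library of the time course (points), by group, with the group mean (bar); axes are linear and start at 0. Slc2a1 is high at 1 h and 6 h, Pgk1 and Car9 are high at 6 h, Aldoc and Pdk1 are low at 6 h, and P4ha2 is high at 3 d and 6 d.

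The genes at the end of the pathway diverged. Slc16a3 (ENSMUSG00000025161.16, chr11:120948480-120960868, plus strand) encodes MCT4, the exporter of lactate from glycolytic cells. It was 19.2, 19.7, 21.2, 23.7 and 30.0 FPKM in the 6 h biopsies and 4.11, 5.18, 7.40, 9.29 and 10.1 FPKM in the shams, without overlap, a log2 difference of 1.57 ± 0.21 (SE), adjusted p = 5.04e-08. At 1 h it had been lower, at 4.19 to 6.31 (median 5.42) FPKM in biopsies and 5.11, 7.07, 10.7 and 14.3 FPKM in shams, groups that overlapped (-0.63 ± 0.22 (SE), adjusted p = 0.0139). That early call ended without sham replicate 4 or 5 and under median of ratios scaling. The shift of the response from 1 h to 6 h was the largest among the 33 genes, at 2.20 ± 0.30 (SE), adjusted p = 3.06e-07. Slc16a3 stayed higher at 3 d (0.95) and 6 d (0.79). Ldha, lactate dehydrogenase A, did not follow it. It was 497 ± 26.0 FPKM in biopsies (SD, n = 6) and 676 ± 74.2 FPKM in shams (n = 4) at 1 h, a log2 difference of -0.44 ± 0.08 (SE), adjusted p = 2.98e-05. That call ended under median of ratios scaling. At 6 h its change was 0.09 and not called. It was lower at 3 d (-0.20, adjusted p = 0.0355), a call that ended in 11 of 22 alternatives, among them those without biopsy replicate 1, 3 or 6 or sham replicate 1 or 4. At 6 d it was again lower (-0.44 ± 0.08 (SE), adjusted p = 4.67e-05).

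Pdk1 (ENSMUSG00000006494.11, chr2:71873224-71903858, plus strand) encodes a kinase that shuts off pyruvate dehydrogenase and so keeps pyruvate from mitochondria, and it is a textbook target of HIF-1. It was lower in the wound bed. Its level was 9.23, 9.30, 9.51, 10.7 and 15.5 FPKM in the 6 h biopsies and 18.7, 19.6, 20.9, 21.2 and 22.8 FPKM in the shams, without overlap and with biopsy replicate 6 highest. Its log2 change came to -0.89 ± 0.11 (SE), adjusted p = 8.66e-09, at 6 h and -0.52 ± 0.11 (SE), adjusted p = 0.000171, at 1 h. It was -0.08 and not called at 3 d, and -0.35 (adjusted p = 0.0105) at 6 d.

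Hif1a (ENSMUSG00000021109.13, chr12:73901375-73947530, plus strand) was higher at 1 h and 6 h. It was 73.6, 109, 112, 151 and 175 FPKM in the 6 h biopsies and 45.0, 48.0, 51.2, 52.4 and 57.3 FPKM in the shams, with every biopsy higher. At 1 h it was 78.2 to 99.2 (median 94.5) FPKM in biopsies, and the shams split into a low pair and a high pair (42.3, 42.5, 78.1 and 88.7 FPKM) that overlapped the biopsies. Fitted, the log2 change was 0.59 ± 0.17 (SE), adjusted p = 0.00338, at 1 h and 1.22 ± 0.17 (SE), adjusted p = 7e-08, at 6 h, and 0.27 and 0.20 at 3 d and 6 d, not called. Egln1 and Egln3 encode the prolyl hydroxylases PHD2 and PHD3, of which Egln3 is itself induced by HIF. Both were lower at 1 h, with log2 differences of -0.54 ± 0.07 (SE), adjusted p = 4.55e-08, for Egln1 and -0.73 ± 0.17 (SE), adjusted p = 0.000309, for Egln3. Neither was called at 6 h, although with median of ratios scaling Egln3 was (0.43, adjusted p = 0.0276), and Egln3 was higher at 3 d (0.56 ± 0.16 (SE), adjusted p = 0.00388).

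Among the other oxygen-dependent hydroxylases, P4ha2 (ENSMUSG00000018906.14, chr11:54100095-54131665, plus strand) was called only at 3 d and 6 d. It encodes a catalytic subunit of collagen prolyl 4-hydroxylase. Its level was 4.59 to 6.52 (median 5.53) FPKM in the 3 d biopsies and 1.57, 2.74, 3.09, 3.26 and 3.30 FPKM in the shams. At 6 d it was 4.69, 5.34, 5.37, 5.92 and 6.67 FPKM in biopsies and 1.58, 2.09, 2.42, 3.11 and 3.23 FPKM in shams, and the groups were apart at both times. The log2 change was 0.79 ± 0.12 (SE), adjusted p = 3.74e-06, at 3 d and 0.94 ± 0.13 (SE), adjusted p = 5.09e-07, at 6 d, after -0.22 and 0.15 at 1 h and 6 h, not called. With median of ratios scaling the 6 h change was 0.26 and called (adjusted p = 0.0487). Fibroblast and matrix genes were also higher at these times. Of the 7 on that list, 6 were higher at 3 d and 6 at 6 d, where 32.1% and 34.1% of all genes were. They summed to 391 to 938 FPKM in the 3 d biopsies and 196 to 409 FPKM in the shams. On the same list, 5 were called lower at 1 h (45.0% of all genes), and 5 lower and 1 higher at 6 h (43.2% and 24.3%). Of 7 endothelial genes 6 were higher at 3 d and 6 at 6 d, and of 11 macrophage markers 11 and 5. The part of these cell types in the P4ha2 change was not tested. P4ha1, the other catalytic subunit, was 0.10 and 0.08 at 3 d and 6 d, not called. Kdm3a, a histone H3 lysine 9 demethylase, was lower at 1 h (-0.78) and 6 h (-0.50).

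The remaining hypoxia-induced genes moved in both directions. Adm (ENSMUSG00000030790.15, chr7:110627661-110629820, plus strand) encodes adrenomedullin, a vasodilator peptide. It was 6.83, 8.31, 9.42, 10.2 and 11.5 FPKM in the 6 h biopsies and 2.82, 3.16, 3.62, 4.83 and 5.19 FPKM in the shams, without overlap, a log2 difference of 1.07 ± 0.16 (SE), adjusted p = 4.89e-07, after 0.67 ± 0.16 (SE), adjusted p = 0.000787, at 1 h. Car9 (ENSMUSG00000028463.14, chr4:43506966-43513729, plus strand) encodes carbonic anhydrase IX, a surface enzyme often used as a hypoxia marker. It was 65.3, 68.1, 70.4, 70.8 and 81.2 FPKM in the 6 h biopsies and 37.1, 37.6, 38.2, 40.9 and 43.6 FPKM in the shams, and again no biopsy overlapped a sham. This gave a log2 difference of 0.83 ± 0.08 (SE), adjusted p = 2.06e-11, at 6 h, after a small fall at 1 h (-0.23) whose call was lost without sham replicate 4. Its changes at 3 d and 6 d were 0.08 and -0.07 and not called.

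Ankrd37 (ENSMUSG00000050914.16, chr8:45996902-46005707, minus strand), an ankyrin repeat gene known as a HIF-1 target, had the largest change of the 33 genes in the time course, and it was a fall. At 1 h it was 3.99 to 24.4 (median 6.92) FPKM in biopsies and 13.7, 28.9, 37.4 and 64.1 FPKM in shams, with overlap through biopsy replicate 4 at 24.4 FPKM. The log2 change was -1.83 ± 0.38 (SE), adjusted p = 9.43e-05. The 1 h shams themselves were high, with a mean of 36.0 FPKM against 19.2, 13.9 and 10.3 FPKM in the shams of 6 h, 3 d and 6 d (adjusted p = 0.00432 over the sham groups). Sham levels moved over time for 21 of the 33 genes by that F test, where 59.0% of all genes did. Ankrd37 was -0.74 at 6 h and not called (adjusted p = 0.0746). Ndrg1 (ENSMUSG00000005125.13, chr15:66929318-66969640, minus strand), a stress-induced gene of differentiating epithelium, was 64.2 to 78.7 (median 75.4) FPKM in the 1 h biopsies and 51.4, 57.2, 57.9 and 58.9 FPKM in the shams, a log2 difference of 0.38 ± 0.11 (SE), adjusted p = 0.00254, and 0.02 and not called at 6 h. Ddit4, an inhibitor of mTOR signalling, was lower at 1 h (-0.42) and higher at 3 d (0.70) and 6 d (0.57). Bnip3, which targets mitochondria for autophagy, Mxi1, a MYC antagonist, and Higd1a, a mitochondrial protein, were each lower at 1 h and 6 d, between -0.59 and -0.33 at 1 h and between -0.54 and -0.34 at 6 d. The calls of Ddit4, Bnip3, Mxi1 and Higd1a at 1 h ended under median of ratios scaling. At 6 d the call of Bnip3 ended without biopsy replicate 4, and that of Mxi1 without biopsy replicate 3 or 4 or sham replicate 2.

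Tested directly, the response changed between 1 h and 6 h, with 15 genes shifting up and 3 down (Aldoc, Pdk1 and Ndrg1), where 30.0% and 16.8% of all genes shifted. Between 6 h and 3 d it shifted up for 5 and down for 13, against 41.2% and 11.0% of all genes. The downward shifts of Pdk1 and Ndrg1 from 1 h to 6 h ended in 17 and 14 of 29 alternatives, most of them leaving out 1 library. The 5 that shifted up from 6 h to 3 d were Gpi1, Aldoc, Pdk1, P4ha2 and Ddit4. With median of ratios scaling, 3 genes shifted up and 19 down between 6 h and 3 d, and all genes split into 2533 up and 3006 down, in place of 5475 and 1461. Between 1 h and 6 h that scaling gave 12 up and 3 down, and 3308 and 2834 of all genes, in place of 3991 and 2235. Between 3 d and 6 d no member passed with limma (0 and 0), where 0.82% and 1.02% of all genes did. At an unadjusted p under 0.05, 2 shifted up and 6 down, and no other tool was run for this contrast. Of the 33 genes, 6 (18.2%, against 24.5% of all genes) were called in both directions over the 4 times, and 4 of them (Hk1, Pgam1, Slc16a3 and Car9) were lower at 1 h and higher at 6 h (12.1%, against 4.67%). All 4 lost the lower call at 1 h under median of ratios scaling, where 1 gene, Egln3, was lower at 1 h and higher at 6 h.

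In the second cohort, 14 genes were higher and 5 lower in the abx-titled arm (26.5% and 43.9% of all genes) and 15 higher and 12 lower in the veh-titled arm (25.7% and 49.0%). With median of ratios scaling the 33 genes split into 18 and 4 and into 16 and 6, and all genes into 4112 and 4058 and into 4560 and 3972. The 3 sets of libraries at 6 h share no library. Called higher in all 3 were 11 of the 33 (33.3%, against 18.8% of the 11795 genes tested in both cohorts), namely Slc2a1, Slc2a3, Hk1, Pfkfb3, Gapdh, Pgk1, Eno1, Slc16a3, Hif1a, Adm and Car9. Called lower in all 3 were 5 (15.2%, against 36.1%), namely Gpi1, Aldoc, Pfkfb4, Pdk1 and Kdm3a. No gene was called in opposite directions in different sets. Slc2a3, which is also among the 14 and the 15, passed the filter only through its biopsies. Over genes that passed it in shams alone the count in all 3 sets was 10 of 32 (31.2%, against 16.7% of 11257 genes). Each of the 11 kept its call in the 3 sets under every alternative in which it was tested, and Slc2a3 was not tested with a filter of at least 5 FPKM. Of the 5 lower genes, Aldoc and Pdk1 did so. Gpi1 and Pfkfb4 lost it under median of ratios scaling at 6 h, Pfkfb4 also in the veh-titled arm under that scaling and quantile normalization, and Kdm3a lost it in the abx-titled arm in 10 of 23 alternatives.

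**Figure D3:**
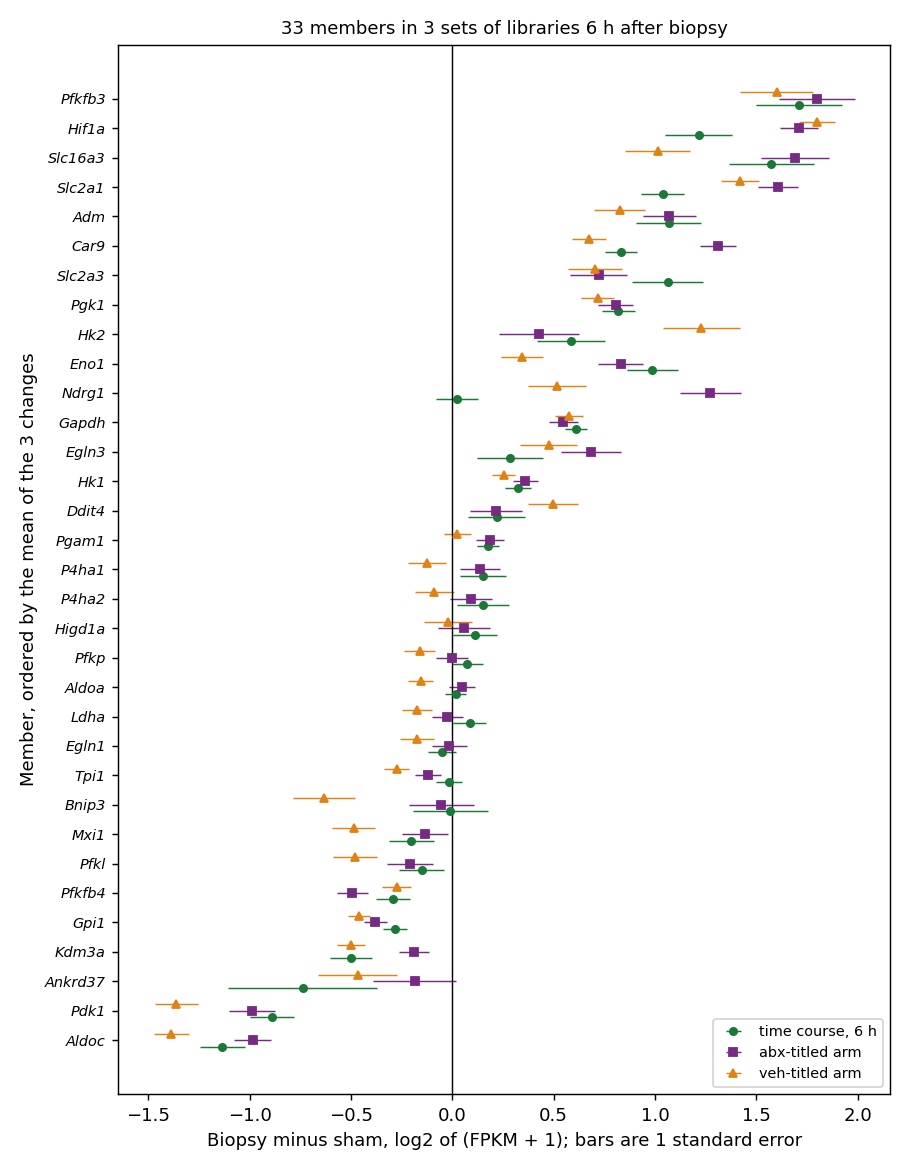
Change in the 33 genes (rows, ordered by the mean of 3 changes) in 3 sets of libraries 6 h after biopsy; points are biopsy minus sham on the log2 (FPKM + 1) scale and bars are 1 standard error. Pfkfb3, Hif1a, Slc16a3 and Slc2a1 lie farthest to the right, and Aldoc and Pdk1 farthest to the left, in the order of the 3-set mean.

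HIF-1 binds the core letters ACGTG or GCGTG in DNA, so the sequence just before and after each gene's start was read for them on both strands (a CACGTG match counts for the first motif on each strand). The windows, from RefSeq on GRCm38.p6, run from 250 bases before the start to 50 after it, and 31 of the 33 genes matched by symbol, all but Slc2a3 and Ndrg1. ACGTG was found in 22 of the 31 genes, where 21.8% of 27025 genes have it. Per window, it was in 56.8% of 44 member windows and 19.6% of all 32851, and GCGTG in 56.8% and 32.4%. Either motif was found in 29 of the 31 genes, against 46.7% of all genes. Of the 10 matched genes higher in all 3 sets at 6 h, 8 held ACGTG, of the 5 lower in all 3, 1 did, and of the 16 others, 13 did. Counted for either motif, these were 10 of 10, 4 of 5 and 15 of 16. Each match describes letters, not binding, and both motifs hold the dinucleotide CG, which is concentrated in many promoters. Windows are printed for 3 genes that rose at 6 h, 2 that fell and Ankrd37, which fell at 1 h, 5′ to 3′ on the gene's strand, with each ACGTG or GCGTG on either strand in capitals.
Slc2a1 (higher; chr4:119108495-119108794, plus strand): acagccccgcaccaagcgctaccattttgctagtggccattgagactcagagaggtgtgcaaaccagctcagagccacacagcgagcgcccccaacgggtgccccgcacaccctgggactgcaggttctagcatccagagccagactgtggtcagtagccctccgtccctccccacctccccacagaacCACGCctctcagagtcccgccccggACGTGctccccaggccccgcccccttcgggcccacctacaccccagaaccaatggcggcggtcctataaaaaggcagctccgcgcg
Pgk1 (higher; chrX:106186850-106187149, plus strand): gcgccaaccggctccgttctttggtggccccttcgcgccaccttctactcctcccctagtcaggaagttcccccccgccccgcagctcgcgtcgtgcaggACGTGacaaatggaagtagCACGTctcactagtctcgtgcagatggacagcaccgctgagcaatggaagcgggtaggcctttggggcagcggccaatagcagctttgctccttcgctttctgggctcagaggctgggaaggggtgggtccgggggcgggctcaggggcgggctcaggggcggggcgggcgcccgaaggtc
Car9 (higher; chr4:43506776-43507075, plus strand): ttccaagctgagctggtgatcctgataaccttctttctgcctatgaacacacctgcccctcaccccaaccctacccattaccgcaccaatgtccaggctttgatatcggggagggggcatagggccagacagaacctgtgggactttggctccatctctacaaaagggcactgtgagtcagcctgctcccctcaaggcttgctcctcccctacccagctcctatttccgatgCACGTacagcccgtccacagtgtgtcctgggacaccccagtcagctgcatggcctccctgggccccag
Aldoc (lower; chr11:78322823-78323122, plus strand): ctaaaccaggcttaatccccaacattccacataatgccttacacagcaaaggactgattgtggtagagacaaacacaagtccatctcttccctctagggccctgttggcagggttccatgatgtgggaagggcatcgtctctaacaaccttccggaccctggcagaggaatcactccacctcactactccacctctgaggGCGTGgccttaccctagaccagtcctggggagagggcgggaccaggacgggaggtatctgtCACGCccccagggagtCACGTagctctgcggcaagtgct
Pdk1 (lower; chr2:71872974-71873273, plus strand): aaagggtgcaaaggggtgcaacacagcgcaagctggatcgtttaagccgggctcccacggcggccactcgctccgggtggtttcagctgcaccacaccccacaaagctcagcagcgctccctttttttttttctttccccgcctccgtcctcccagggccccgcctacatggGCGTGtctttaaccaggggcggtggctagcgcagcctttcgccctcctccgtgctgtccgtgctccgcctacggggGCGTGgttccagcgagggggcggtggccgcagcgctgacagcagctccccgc
Ankrd37 (lower at 1 h; chr8:45999801-46000100, minus strand): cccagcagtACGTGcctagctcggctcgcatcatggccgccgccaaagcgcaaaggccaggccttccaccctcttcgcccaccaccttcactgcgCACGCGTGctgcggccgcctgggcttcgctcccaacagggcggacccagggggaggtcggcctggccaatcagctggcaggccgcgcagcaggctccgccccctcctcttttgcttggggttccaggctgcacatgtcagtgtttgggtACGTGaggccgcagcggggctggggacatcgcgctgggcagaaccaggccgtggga
Genes that rose and genes that fell both carry matches. Counted from 1 at the 5′ end of each window, Pgk1 holds ACGTG at positions 101 and 120, and Aldoc, which fell at 6 h, holds matches at 201, 262 and 278. Pdk1 holds GCGTG but not ACGTG in the window shown.

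Within pairs of related genes, the ratio of the first to the second moved in 21 of 42 tests (7 pairs in 6 comparisons, exact two-sided permutation test, adjusted over the 42). Pfkfb4 over Pfkfb3 fell in all 6. At 6 h the log2 ratio was 0.08 ± 0.29 (SD, n = 5) in biopsies and 2.08 ± 0.44 (n = 5) in shams, a difference of -2.01 (exact permutation, adjusted p = 0.0208). The differences in the other comparisons were -0.64 at 1 h, where the groups overlapped, -1.22 at 3 d, -1.35 at 6 d, -2.30 in the abx-titled arm and -1.88 in the veh-titled arm. Aldoc over Aldoa was called in the 3 sets at 6 h, where it fell by 1.15, 1.03 and 1.23, and in none of the other 3 comparisons. P4ha2 over P4ha1 rose at 3 d by 0.69 (exact permutation, adjusted p = 0.00909) and at 6 d by 0.85 (exact permutation, adjusted p = 0.0208). Hk2 over Hk1 rose at 1 h, 6 d and in the veh-titled arm, by 0.82, 0.77 and 0.98. Egln3 over Egln1 rose at 3 d by 0.53, in the abx-titled arm by 0.70 and in the veh-titled arm by 0.65. Pfkp over Pfkl rose at 1 h by 0.46 and in the veh-titled arm by 0.32. Slc2a3 over Slc2a1 fell in both arms, and these 2 calls were lost with a pseudocount of 0.1. Adjusted p-values of the called tests (exact permutation) lay between 0.00909 and 0.0381.

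**Figure D4:**
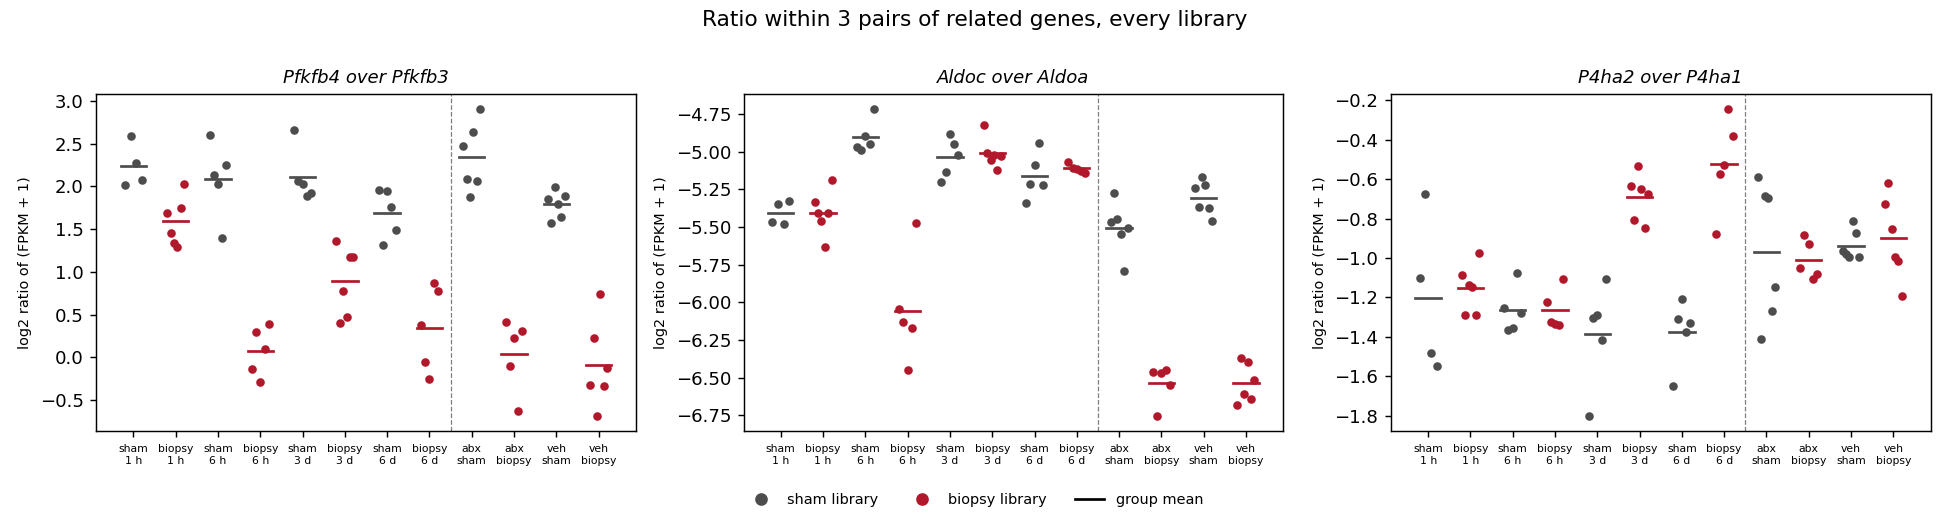
log2 ratio of (FPKM + 1) within 3 pairs of related genes in every library (points) with the group mean (bar), for the time course (left of the dashed line) and the second cohort. The mean of Pfkfb4 over Pfkfb3 is lower in the biopsies of every comparison, Aldoc over Aldoa is low at 6 h and in both arms, and P4ha2 over P4ha1 is high at 3 d and 6 d.

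At an adjusted p under 0.05, the effect of biopsy differed between the arms for 2 genes, Car9 and Ndrg1, both with a larger rise in the abx-titled arm, where 2.62% of all genes differed in that direction and 0.684% in the other (0 members with limma, and 1 at an unadjusted p under 0.05). Car9 was 9.21 to 12.1 (median 11.0) FPKM in the abx-titled shams and 20.5 to 22.6 (median 21.8) FPKM in the veh-titled shams. In the biopsies it was 24.1, 24.5, 25.8, 33.8 and 35.7 FPKM in the abx-titled arm and 31.9 to 38.6 (median 35.0) FPKM in the veh-titled arm. The shams did not overlap, and the abx-titled shams were the lower (-0.94, adjusted p = 1.88e-07), while the biopsies overlapped, the abx-titled ones again lower (-0.31, adjusted p = 0.0234). The change was 1.31 in the abx-titled arm and 0.68 in the veh-titled arm, a difference of 0.64 ± 0.12 (SE), adjusted p = 0.00639. It passed in all 33 alternatives run for it, with adjusted p at most 0.0275.

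Ndrg1 was 20.2 to 27.2 (median 23.2) FPKM in the abx-titled shams and 33.8 to 36.9 (median 35.2) FPKM in the veh-titled shams, which did not overlap. In the biopsies it was 38.9, 47.3, 55.1, 77.8 and 87.9 FPKM in the abx-titled arm and 44.3 to 67.5 (median 48.2) FPKM in the veh-titled arm, with overlap. Its difference of 0.76 ± 0.21 (SE), adjusted p = 0.0459, passed in 11 of 33 alternatives, with values from 0.61 to 0.96 and adjusted p up to 0.0906. Of the 33 genes, 2 were higher and 6 lower in the abx-titled shams than in the veh-titled shams (3.38% and 9.20% of all genes), and 7 were higher and 3 lower in the biopsies (7.82% and 7.22%). With median of ratios scaling, all genes split into 652 higher and 664 lower in the shams, in place of 400 and 1090, into 732 and 1378 in the biopsies, in place of 926 and 855, and into 182 and 314 for the difference between arms, in place of 311 and 81. The 33 genes then split into 3 and 5, 5 and 3, and 1 and 0. Hk2 was called higher in the abx-titled shams, at 11.3 to 33.4 (median 19.6) FPKM against 10.1 to 14.4 (median 11.6) FPKM. Hk2 rose in the veh-titled arm (1.23 ± 0.19 (SE), adjusted p = 4e-06) and was 0.43 and not called in the abx-titled arm, where 2 shams (replicates 2 and 5) were high. Without these 2 shams the Hk2 change in the abx-titled arm was 0.73 and called (limma, adjusted p = 0.000492). It was called in 8 of 23 alternatives, among them median of ratios scaling and quantile normalization. The arms' difference in Hk2 of -0.80 did not pass (adjusted p = 0.0969), and without these 2 shams it was -0.50 and not called. Slc2a1 rose in both arms without overlap, to 95.8, 118, 120.3, 131 and 139 FPKM from 32.3 to 47.7 (median 38.2) FPKM in the abx-titled arm, and to 99.8 to 132 (median 113) FPKM from 38.8 to 46.1 (median 42.2) FPKM in the veh-titled arm.

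Hif1a, Pfkfb3, Slc16a3, Aldoc and Pdk1 were called in both arms in the direction they had at 6 h in the time course. Hif1a was 81.0, 89.3, 97.9, 111 and 121 FPKM in the abx-titled biopsies and 24.6 to 35.7 (median 29.6) FPKM in their shams, and 119 to 140.0 (median 124) FPKM and 32.9 to 38.8 (median 34.8) FPKM in the veh-titled arm. The groups did not overlap in either arm, with log2 differences of 1.71 ± 0.09 (SE), adjusted p = 8.13e-13, and 1.80 ± 0.09 (SE), adjusted p = 1.34e-13. Pfkfb3 was 4.42, 4.73, 4.75, 5.43 and 9.14 FPKM in the abx-titled biopsies and 0.564 to 1.44 (median 0.835) FPKM in their shams, and 2.66 to 8.50 (median 5.69) FPKM and 0.917 to 1.41 (median 1.11) FPKM in the veh-titled arm. Again no biopsy overlapped a sham, with differences of 1.80 ± 0.19 (SE), adjusted p = 1.88e-08, and 1.60 ± 0.18 (SE), adjusted p = 4.07e-08. The lactate exporter Slc16a3 was 8.06, 8.89, 9.33, 10.4 and 16.1 FPKM in the abx-titled biopsies and 1.60 to 4.48 (median 2.26) FPKM in their shams, and 7.55 to 9.90 (median 9.52) FPKM and 3.25 to 4.84 (median 3.95) FPKM in the veh-titled arm. Its groups were apart in both arms, with differences of 1.69 ± 0.17 (SE), adjusted p = 9.67e-09, and 1.01 ± 0.16 (SE), adjusted p = 6.21e-06.

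Aldoc was 4.0, 4.15, 4.35, 4.57 and 4.77 FPKM in the abx-titled biopsies and 6.57 to 11.5 (median 10.2) FPKM in their shams, and 2.97 to 3.80 (median 3.43) FPKM and 9.47 to 11.6 (median 10.4) FPKM in the veh-titled arm. Pdk1 was 2.66, 2.82, 3.05, 4.15 and 5.29 FPKM in the abx-titled biopsies and 7.38 to 9.23 (median 7.77) FPKM in their shams, and 3.10 to 4.72 (median 4.09) FPKM and 10.5 to 13.3 (median 11.4) FPKM in the veh-titled arm. Every biopsy was below every sham for both genes in both arms. Aldoc fell by 0.98 and 1.39 (adjusted p = 3.22e-09 and 4.67e-12) and Pdk1 by 0.99 and 1.36 (adjusted p = 8.59e-08 and 1.95e-10). Ankrd37, which fell at 1 h in the time course, was -0.18 and not called in the abx-titled arm and -0.47 (adjusted p = 0.0356) in the veh-titled arm, a call lost in 9 of 24 alternatives. The late gene P4ha2 was 0.09 and -0.09, not called in either arm.

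**Figure D5:**
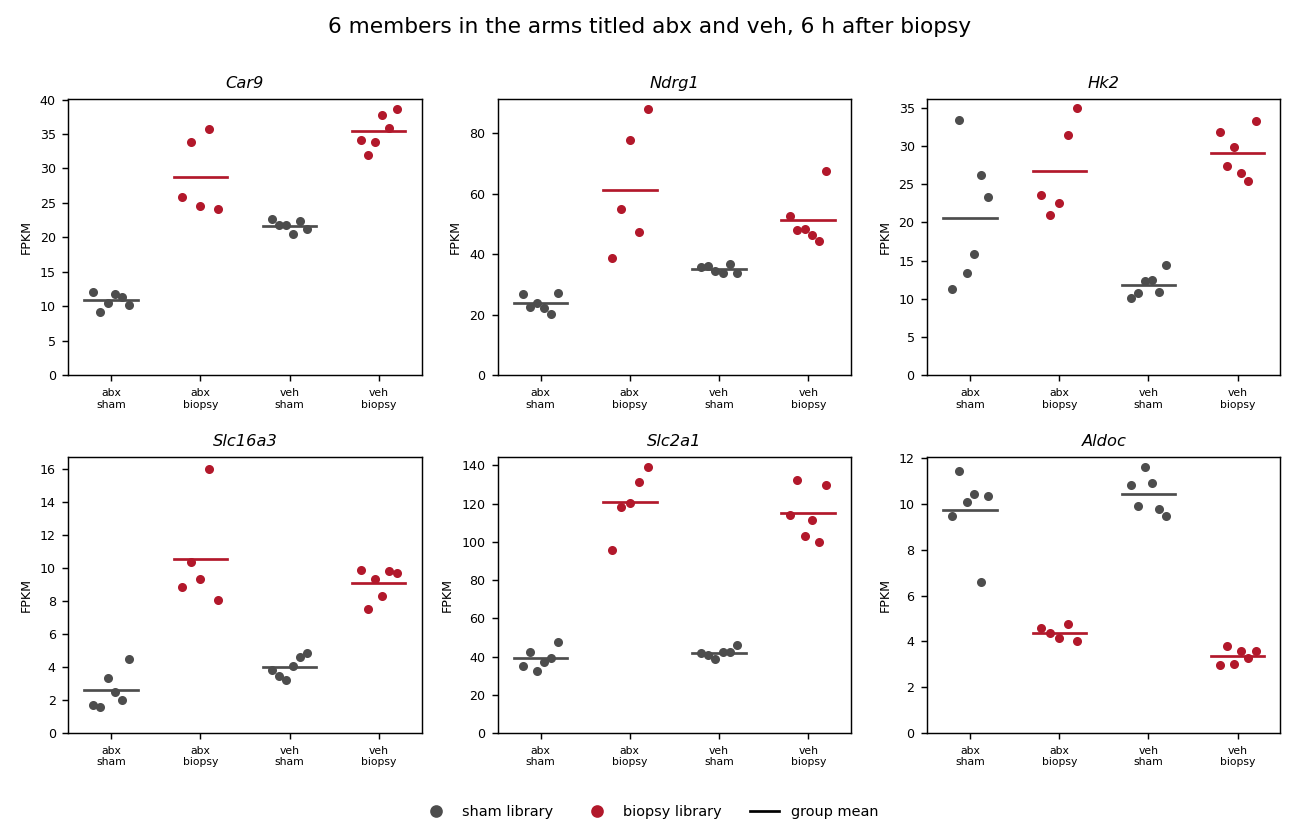
FPKM of 6 genes in each library of the second cohort (points), with the group mean (bar), for the arms titled abx and veh, 6 h after biopsy; axes start at 0. The Car9 shams of the 2 arms do not overlap, and Aldoc is lower in the biopsies of both arms, and 2 of the 6 Hk2 shams of the abx-titled arm lie at 26.1 and 33.4.

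Genes of the pathway outside the 33 moved in both directions too. Of 30 other glycolysis and gluconeogenesis genes, 27 were tested, and at 6 h 5 were higher and 13 lower (24.3% and 43.2% of all genes), at 1 h 1 and 9 (9.38% and 45.0%), at 3 d 6 and 11 (32.1% and 10.5%), and at 6 d 1 and 12 (34.1% and 10.2%). Named by the size of their largest called change over the 6 comparisons, genes of that list were Pck1, a gluconeogenic enzyme (-3.34 ± 0.20 (SE), adjusted p = 2.94e-12, in the veh-titled arm), Pdk2, a relative of Pdk1 (-2.63 ± 0.14 (SE), adjusted p = 2.88e-13, in the same arm), Pgm1, phosphoglucomutase (1.76 ± 0.08 (SE), adjusted p = 4.94e-14, in the abx-titled arm), Hk3, a hexokinase (1.52 ± 0.12 (SE), adjusted p = 1.47e-13, at 6 h) and Pfkm, the muscle-type phosphofructokinase (-1.48 ± 0.14 (SE), adjusted p = 3.41e-09, in the veh-titled arm). Hk3 was at most 0.690, 0.425 and 0.298 FPKM in the shams of 1 h, 6 h and 3 d, and its median in the 6 d shams was 0.877 FPKM. It passed the filter of the time course only through its biopsies, and its call, though counted, is not taken as support. Of 36 other genes of the HIF pathway and its targets, all tested, 12 were higher and 15 lower at 6 h, 6 and 18 at 1 h, 18 and 2 at 3 d, and 16 and 4 at 6 d, beside the same shares of all genes. Among those named by the same rule were Hmox1, a heme-degrading enzyme (3.30 ± 0.15 (SE), adjusted p = 4.32e-14, in the abx-titled arm), Angptl4, a lipase inhibitor (2.90 ± 0.23 (SE), adjusted p = 4.19e-13, at 6 h), Nfil3, a transcription factor (2.59 ± 0.19 (SE), adjusted p = 5.72e-14, at 6 h) and Lox, which crosslinks collagen (2.58 ± 0.18 (SE), adjusted p = 1.23e-13, at 6 d). At 6 h the changes in Hmox1, Angptl4 and Nfil3 were larger than that of any of the 33 genes.

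Markers of other cell types moved at the same times. The tissue label was checked on 12 colonocyte markers, which summed to 8112 to 8676 FPKM in the 6 h shams and 11682 to 12676 FPKM in the 6 h biopsies. By 6 d the order was the reverse, with 7546 to 8037 FPKM in shams and 4568 to 5722 FPKM in biopsies. Of these 12, 7 were higher and 3 lower at 6 h (24.3% and 43.2% of all genes), with changes from -2.99 to 1.72. The counts were 6 and 0 at 1 h (9.38% and 45.0%), 2 and 5 at 3 d (32.1% and 10.5%) and 1 and 8 at 6 d (34.1% and 10.2%). At 6 h all 13 neutrophil markers were higher, where 24.3% of all genes were. So were 5 of 6 red blood cell genes and 4 of 7 squamous markers, the rest of which were too low to test. The squamous markers summed to 77.4 to 167 FPKM in biopsies and 1.12 to 2.08 FPKM in shams. Each of them thus lay near or below the filter of 1 FPKM in the 6 h shams. Red blood cell genes summed to 172 to 3116 FPKM and 20.5 to 73.9 FPKM. At 3 d 11 of 12 macrophage markers (the other was not matched) were higher and all 6 smooth muscle genes lower (32.1% and 10.5% of all genes). No marker on these lists was at 0 in every library. The 6 h biopsy replicate 6 had the lowest Slc2a1 (120.3 FPKM), Hif1a (73.6 FPKM) and Pfkfb3 (7.54 FPKM) of its group and the highest Aldoc and Pdk1. It also had the group's lowest summed neutrophil markers (397 FPKM) and squamous markers (77.4 FPKM). It had the highest Car9 (81.2 FPKM) and Eno1 (90.7 FPKM) of the group. Without it, the changes at 6 h were 1.14 for Slc2a1, 1.39 for Hif1a, -1.30 for Aldoc, -1.02 for Pdk1 and 0.78 for Car9. Without it, 13 members were called higher and 6 lower. The part of these cell types in the results for the 33 genes was not tested.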

How the data were processed

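Poly(A)-selected RNA of mouse colon was sequenced in 64 libraries, 41 of a time course and 23 of a second cohort. The authors deposited gene levels as FPKM, 1 file per library, made with STAR and Cufflinks on mm10 per the submitters' processing notes. Their versions, the annotation and the counting settings were not given in sources used here. FPKM is relative to each library's mapped total, so a few very abundant genes can lower all others.

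Each cohort was fitted apart with limma 3.58.1 in R 4.3.3 (empirical Bayes with a mean-variance trend) on log2(FPKM + 1), with 1 mean per group, over genes that reached 1 FPKM in 4 or more libraries. P-values were adjusted by Benjamini-Hochberg over all genes tested, and 0.05 was the threshold. Gene pair ratios were compared by exact two-sided permutation, over every split of the compared libraries into groups of the observed sizes. The fits were tested on simulated data. Figures used matplotlib 3.10.9, and tables pandas 2.3.3 in Python 3.11.15.

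The 33 genes, the other gene lists and the tests were chosen with earlier results of these data known. Per-library values are given for the 12 genes with the largest called changes and for 1 gene of each role list without one. From the other pathway lists, the 5 with the largest called changes in each list are named, except 1 that is not reported here. The 6 promoters printed, the genes in the figures and 4 alternatives were chosen after seeing the data. Of the symbols on the lists, 2 were not matched (Tigar and Adgre1). Alternatives covered pseudocounts, filters, 2 other scalings, array weights, fits within the groups compared, a replicate block and leaving out each library.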

Additional observations from a re-analysis of the deposited data

Results flagged for a closer look

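For the 14 genes with values per library, 168 sets of values, each of a gene in a group, were examined for a single value far from the rest. There were 15 such values, some of them in the same library, where chance gives about 5% of sets. In the time course, Ankrd37 was 24.4 FPKM in 1 h biopsy replicate 4, and Slc2a3 was 0.746 FPKM in 1 h biopsy replicate 6. Adm was 7.13 FPKM in 3 d biopsy replicate 6. Slc2a3 was 0.143 FPKM in 3 d sham replicate 1 and 2.03 FPKM in 6 d biopsy replicate 3, a library rich in B cell genes. At 6 h, Aldoc was 13.9 FPKM and Pdk1 15.5 FPKM in biopsy replicate 6, both above the rest of that group, Pfkfb3 was 4.36 FPKM in sham replicate 4, and Aldoc was 23.9 FPKM in sham replicate 5.

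In the second cohort, Pdk1 was 9.23 FPKM in abx-titled sham replicate 2, Adm was 4.15 FPKM in abx-titled sham replicate 5, and Slc2a3 was 0.663 FPKM in abx-titled sham replicate 3, another library rich in B cell genes. In abx-titled biopsy replicate 5, Pfkfb3 was 9.14 FPKM and Slc16a3 16.1 FPKM. Ndrg1 was 67.5 FPKM in veh-titled biopsy replicate 6.

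The effect of biopsy differed between groups in 38 tests of the difference itself, by limma with adjustment over all genes tested. From 1 h to 6 h, the log2 change shifted up in Hk1 (0.55), Pfkfb3 (1.14), Gapdh (0.61), Pgk1 (0.69), Pgam1 (0.46), Eno1 (1.17), Ldha (0.53), Slc16a3 (2.20), Hif1a (0.62), Egln1 (0.49), Egln3 (1.02), P4ha1 (0.42), Car9 (1.06), Ddit4 (0.64) and Higd1a (0.44). It shifted down in Aldoc (-1.05), Pdk1 (-0.37) and Ndrg1 (-0.36). From 6 h to 3 d, it shifted up in Gpi1 (0.40), Aldoc (1.06), Pdk1 (0.81), P4ha2 (0.64) and Ddit4 (0.48). It shifted down in Slc2a1 (-0.65), Slc2a3 (-0.78), Hk1 (-0.48), Hk2 (-0.63), Pfkfb3 (-0.89), Gapdh (-0.52), Pgk1 (-0.96), Eno1 (-0.97), Ldha (-0.29), Hif1a (-0.95), Adm (-0.93), Car9 (-0.75) and Higd1a (-0.39). Both contrasts use the 6 h libraries, so their shifts are not independent. Between the arms, the change was larger in the abx-titled arm for Ndrg1 (0.76) and Car9 (0.64).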

How the results depend on the processing

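Over the 33 genes and all comparisons, 8369 values were recomputed under an alternative. Of these, 7946 kept their side of the threshold, 226 of them with another sign than the uncalled value reported, 275 lost a call and 143 gained one with the same sign, and 5 called or newly called values changed sign, all 5 under median of ratios scaling. Those were Gpi1 (0.0016), Tpi1 (0.0192) and Gapdh (0.226) at 1 h, and Aldoa (0.0972) and Ldha (0.0803) in the veh-titled arm. Under that scaling the genes called lower were 5 at 1 h, 3 at 6 h, 8 at 3 d and 6 in the veh-titled arm, those shifting up from 6 h to 3 d were 3, and those with a larger rise in the abx-titled arm were 1. Without a filter on low values, 2 were lower at 3 d, 1 shifted down from 1 h to 6 h and 1 rose more in the abx-titled arm. With array weights, 1 was lower at 3 d, 8 in the abx-titled arm, 8 shifted up from 6 h to 3 d, 2 shifted down from 3 d to 6 d, and the arms differed for 4 upward and 1 downward. Fits of only the groups compared gave 2 lower at 3 d, as did the exact permutation test of every gene. Scaling without small RNA symbols gave 8 lower at 3 d and 1 larger rise in the abx-titled arm. Without the B cell rich libraries, 7 were lower at 6 d, 1 shifted down from 1 h to 6 h and 1 rose more in the abx-titled arm. Without abx-titled shams 2 and 5, 4 rose more in that arm. The cause of these differences was not tested.

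With 1 library left out at a time, genes called lower numbered 12 to 18 at 1 h (12 without sham replicate 4), 1 to 5 at 3 d and 8 to 12 at 6 d (8 without biopsy replicate 3). Genes shifting down from 1 h to 6 h numbered 1 to 3, and the arms differed for 1 to 3 genes upward and 0 to 1 downward. The higher calls at 6 h numbered 13 in each such fit.

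No pairing by replicate number was seen: correlations of same-numbered deviations ran from -0.282 to 0.254, and at most 2 per comparison exceeded 0.1. Those of libraries with other numbers ran from -0.411 to 0.464. With 4 to 6 same-numbered pairs per comparison, these values cannot exclude a pairing. With the replicate number as a block, 2 genes were lower at 3 d, and the arms differed for 1 gene upward and 1 downward. For gene pair ratios, 19 of 42 tests were called with a pseudocount of 0.1, under which Slc2a3 over Slc2a1 was 0.15 in the veh-titled arm, a change of sign. A planned permutation test adjusted over the 33 genes alone was not run. Depth is unknown, which limits statements on low genes such as Slc2a3, where 1 FPKM may rest on few reads.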
